A study of Homo sapiens with 282 samples.

Results

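The genes described here are 10 members of the NF-kappaB system: the subunit genes NFKB1, NFKB2 and RELB, the inhibitor genes NFKBIA, NFKBIE, NFKBIZ and BCL3, and the genes of the ubiquitin-dependent brakes TNFAIP3, TNIP1 and CYLD. They were chosen by symbol from the platform annotation, and all 10 were found among the 18239 genes with a named probe set. Where a gene had several probe sets, the brightest on average stood for it. The measurements come from OCI-Ly3, an established human line of diffuse large B cell lymphoma of the activated B cell type, exposed to 14 compounds for 6, 12 or 24 h and profiled on HT HG-U219 microarrays.

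Cells were seeded in 96-well plates and treated 12 h later. The vehicle control was 1% DMSO with 8 arrays at each time, and 2 arrays at each time came from medium alone. Methotrexate was given at 100 uM with 6 arrays per time. Each of the other 13 compounds had 3 arrays at each of 2 concentrations: aclacinomycin A 0.036 and 0.105 uM, blebbistatin 10 and 100 uM, camptothecin 0.01 and 0.31 uM, cycloheximide 0.264 and 5 uM, doxorubicin 0.03 and 0.101 uM, etoposide 0.811 and 0.812 uM, geldanamycin 0.001 and 0.032 uM, and H-7 12.4 and 20.2 uM. The remaining pairs were mitomycin C 0.553 and 2.56 uM, monastrol 50 and 100 uM, rapamycin 13.8 and 22 uM, trichostatin A 0.114 and 0.143 uM, and vincristine 0.005 and 0.01 uM. This gave 87 groups and 282 arrays, 94 at each time. Whether replicates are separate cultures is not stated, and p-values then measure the spread between these arrays, which may be technical. The 6 methotrexate arrays of a time carry the replicate numbers 1, 2 and 3 in duplicate, and n = 6 may count repeats of the same sample. Everything rests on 1 cell line.

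NF-kappaB is a family of transcription factors that work as dimers. Inhibitory IkappaB proteins hold the dimers in the cytoplasm until the IKK kinase complex marks the inhibitors for degradation, and many genes of the inhibitors and of the enzymes that trim ubiquitin from the pathway are themselves targets of NF-kappaB, which closes a negative feedback loop. A second, slower branch processes the product of NFKB2 and releases dimers that contain RELB. Lymphomas of the activated B cell type are known for constant activity of the pathway.

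The values are log2 intensities summarised per probe set by the authors. A level is a log2 intensity, a difference is a log2 fold change against time-matched DMSO, and levels of different probe sets are not compared with each other. Differences are given ± standard error (SE) from limma, and a gene was called where the Benjamini-Hochberg adjusted p over all 18239 genes was under 0.05. All comparisons at a time share the same DMSO arrays, so they are not independent of each other. RNA was taken from whole wells, and fewer cells carrying a transcript cannot be told apart from less of it per cell.

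Of 11 measured genes of B cell identity, 4 (CD74, CD37, EBF1 and PAX5) lay above the median gene level of 6.53 at 6 h, while 7, among them MS4A1 at 4.58 and CD79A at 5.05, did not. None of 9 T and NK cell markers, 8 myeloid markers or 2 erythroid markers lay above that median, nor did 8 of 9 stromal and epithelial markers. All 94 arrays at 6 h had an upper quartile between 8.15 and 8.35. At 12 h 31 of 94 arrays and at 24 h 17 of 94 had an upper quartile under 8 or a difference over 2 between the 3' and 5' probe sets of ACTB. These are called low-signal arrays here. The median SE of a comparison of 3 arrays with DMSO went from 0.0988 at 6 h to 0.299 at 12 h, with 0.276 at 24 h, so the 6 h results lead and later ones are given with and without those arrays.

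The promoters are shown because members of this system are known targets of NF-kappaB. The 250 bases before the transcription start in RefSeq (GRCh38.p14) were searched on both strands for the kappaB consensus, the DNA motif that NF-kappaB dimers recognise. Of the members, 8 had 1 or more windows in the table, and 7 of these 8 genes had a match in at least 1 window, against 11.8% of 27305 genes. By window it was 9 of 15, against 9.96% of 35116. The 4 windows printed here belong to 2 feedback inhibitors and 2 subunits. They are written in the direction of transcription, with each match in capitals.
NFKBIA: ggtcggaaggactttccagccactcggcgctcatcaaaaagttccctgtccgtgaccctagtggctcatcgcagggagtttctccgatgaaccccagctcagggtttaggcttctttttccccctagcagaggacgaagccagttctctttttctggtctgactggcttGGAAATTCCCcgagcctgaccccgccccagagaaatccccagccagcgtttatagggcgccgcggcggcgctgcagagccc
TNFAIP3: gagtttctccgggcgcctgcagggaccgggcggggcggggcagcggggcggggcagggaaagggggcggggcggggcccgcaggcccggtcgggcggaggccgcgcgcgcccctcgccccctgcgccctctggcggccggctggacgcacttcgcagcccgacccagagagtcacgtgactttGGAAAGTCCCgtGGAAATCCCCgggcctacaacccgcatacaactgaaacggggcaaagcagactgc
NFKB1: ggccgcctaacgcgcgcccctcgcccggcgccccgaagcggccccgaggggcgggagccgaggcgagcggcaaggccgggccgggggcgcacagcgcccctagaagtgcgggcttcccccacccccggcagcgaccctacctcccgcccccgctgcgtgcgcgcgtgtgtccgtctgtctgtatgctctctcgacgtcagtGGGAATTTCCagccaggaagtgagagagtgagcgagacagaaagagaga
NFKB2: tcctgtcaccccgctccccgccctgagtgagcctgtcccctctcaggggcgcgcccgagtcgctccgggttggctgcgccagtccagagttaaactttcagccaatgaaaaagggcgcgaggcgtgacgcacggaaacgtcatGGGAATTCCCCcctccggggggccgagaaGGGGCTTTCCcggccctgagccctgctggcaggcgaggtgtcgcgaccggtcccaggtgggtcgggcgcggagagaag
The NFKBIA window is chr14:35404750-35404999 on the minus strand, and its match runs from -81 to -72 of the start. TNFAIP3 lies on the plus strand at chr6:137867009-137867258 and has 2 matches, from -67 to -58 and from -55 to -46. The NFKB1 window, chr4:102501109-102501358 on the plus strand, has its match from -49 to -40. In the NFKB2 window, chr10:102394328-102394577 on the plus strand, a capital stretch from -107 to -97 holds overlapping matches, and another match lies from -78 to -69. TNIP1 (chr5:151081035-151081284, minus strand) had the match GGGACTTTCC from -42 to -33, and NFKBIZ (chr3:101827740-101827989, plus strand) had GGGAATTTCC from -223 to -214. The BCL3 window (chr19:44748458-44748707, plus strand) held no match. A match is a description of the letters and no measure of binding.

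At 6 h 80 of 270 pairs of a member and a compound group were called, or 29.6%, where all genes gave 13.7%. The members lay between the 72.8th and 99.4th percentile of mean level, while the shares over all genes include dim genes. Shares over genes of like level were not taken, here or below, so the part of level in the difference was not tested. Rises made up 46 pairs (17% against 7.02% over all genes) and falls 34 (12.6% against 6.68%). Calls came from 14 of 27 compound groups. In the other 13 groups no member was called by limma, 24 of their 130 pairs had an unadjusted p under 0.05, and differences ran from -0.23 to 0.19. NFKB1, NFKBIE, NFKBIZ and TNFAIP3 each rose in 6 of the 27 groups, and NFKB2 and BCL3 each fell in 5. Of the 80 calls, 57 were kept under each of 19 alternatives, most of which only left out a replicate number. Leaving out low-signal arrays could change nothing at 6 h, where no array was low. The 4 calls that turned direction under an alternative were all of CYLD.

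**Figure D1:**
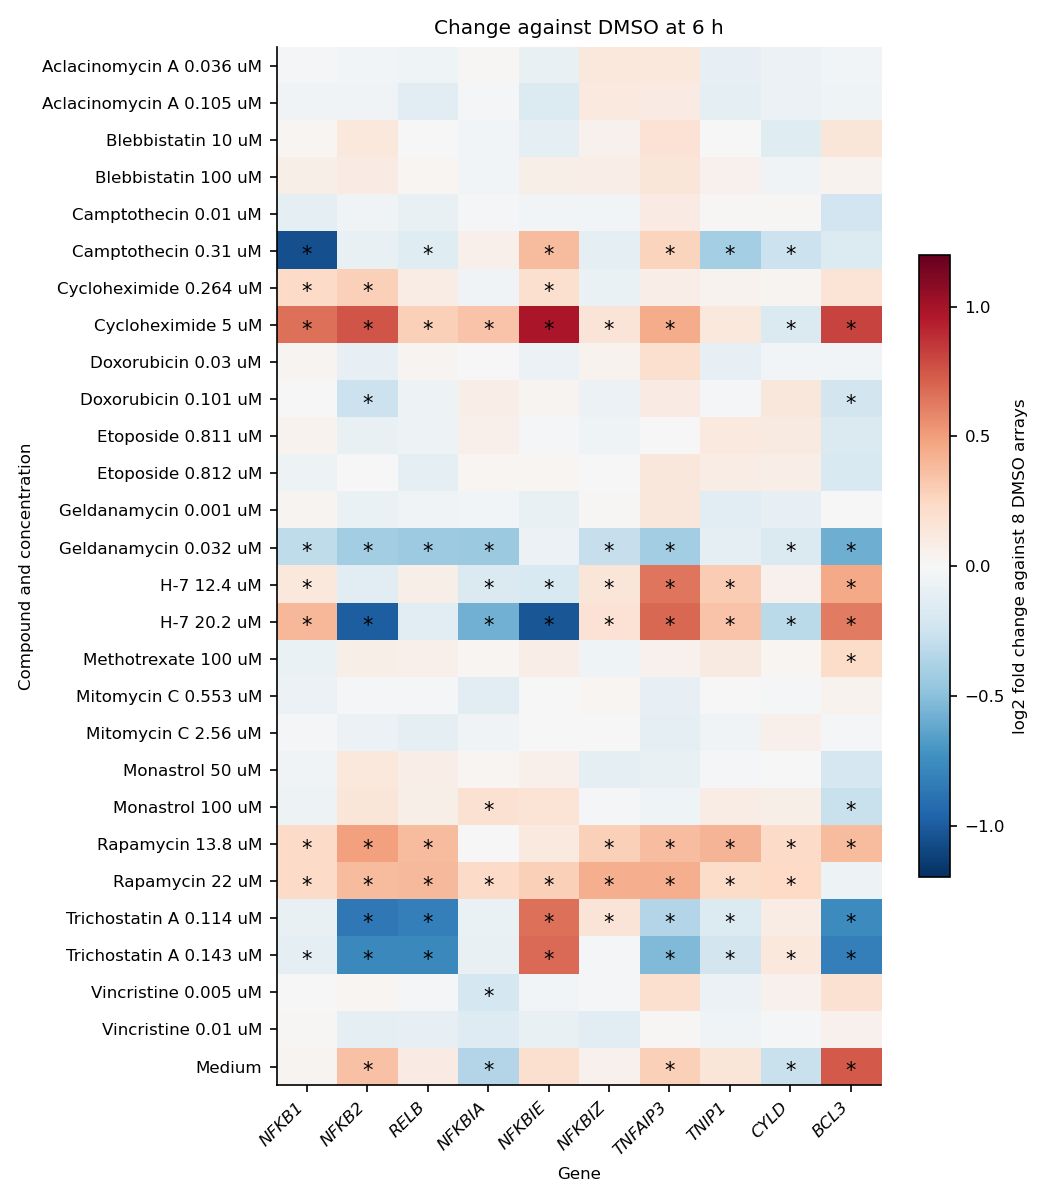
Heat map of log2 fold changes against DMSO at 6 h for the 10 members (columns) in the compound groups and medium (rows), with called cells marked. Most of a row moves one way under rapamycin (9 of 10 members up at 22 uM) and geldanamycin 0.032 uM (8 of 10 down). The rows of H-7, trichostatin A and camptothecin split the members.

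In the order of the 29 group means at 6 h, most neighbours overlapped in their arrays. Pairs without overlap were not counted over all genes, so the counts below have no background and mark no trait of a member. NFKB1 had 4 of 28 neighbouring pairs without overlap. It was lowest under camptothecin 0.31 uM at 9.96 ± 0.085 (SD, n = 3), next under geldanamycin 0.032 uM at 10.72, and highest under cycloheximide 5 uM at 11.68 ± 0.0656. NFKB2 ranged from 8.49 under H-7 20.2 uM to 10.24 under cycloheximide 5 uM, with 3 such pairs. RELB ranged from 9.49 under trichostatin A 0.114 uM to 10.70 under rapamycin 22 uM, and its extremes overlapped with the other concentration of the same compound. The inhibitors NFKBIA and NFKBIE shared both ends of their order: H-7 20.2 uM was lowest, at 12.56 and 7.93, and cycloheximide 5 uM highest, at 13.48 and 9.94. BCL3 had 5 of 28 such pairs, the most among the members, and ran from 7.71 under trichostatin A 0.143 uM to 9.35 under cycloheximide 5 uM. For TNFAIP3 and CYLD only 1 neighbouring pair each was free of overlap.

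Cycloheximide blocks the elongation step of protein synthesis. At 5 uM and 6 h it raised 8 of the 10 members, with CYLD called lower and TNIP1 not called, where 33.4% of all genes were called (16.5% up, 16.8% down). The cytoplasmic inhibitor gene NFKBIE read 9.96, 9.91 and 9.96, against 8.85 to 9.08 (median 8.95) on the DMSO arrays. All 3 lay far above every DMSO array, a difference of 0.98 ± 0.0668 (adjusted p = 6.36e-23). The nuclear inhibitor gene BCL3 read 9.3, 9.39 and 9.35 against 8.29 to 8.69 (median 8.54), also without overlap, a rise of 0.81 ± 0.0711 (adjusted p = 4.91e-17).

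Both NF-kappaB precursor genes rose under cycloheximide as well. NFKB1, whose product is cut to a DNA-binding subunit without an activation domain, read 11.75, 11.62 and 11.67 against 10.9 to 11.11 in DMSO, a rise of 0.66 ± 0.0472 (adjusted p = 1.09e-21). NFKB2 read 10.27, 10.19 and 10.25 against 9.32 to 9.7, a rise of 0.75 ± 0.0599 (adjusted p = 3.15e-19). Neither overlapped with DMSO. Smaller rises were measured for TNFAIP3, the ubiquitin-editing brake, at 0.44 ± 0.0601, for NFKBIA at 0.35 ± 0.0483 and for RELB at 0.28 ± 0.0628. NFKBIZ, a nuclear inhibitor that also acts as a coactivator, rose by 0.15 ± 0.0541, and its call was lost without cycloheximide replicate 2 (0.15, adjusted p = 0.0882) and without replicate 3 (0.07, adjusted p = 0.443). CYLD, a deubiquitinase that cuts the chains needed for IKK activation, was lower by -0.18 ± 0.0501 on the probe set used; it was not called without replicate 2 (-0.16, adjusted p = 0.0695), and the mean of its probe sets gave 0.39. TNIP1, a ubiquitin-binding partner of the TNFAIP3 protein, stood at 0.13 ± 0.0573 (adjusted p = 0.0846).

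At 0.264 uM cycloheximide 3 of 10 members were called, all rises, against 9.76% of all genes. NFKB1 read 11.23, 11.2 and 11.33 and rose by 0.23, and NFKB2 read 9.69, 9.83 and 9.78 and rose by 0.28. NFKBIE read 8.9, 9.09 and 9.47, and its rise of 0.19 rested on the third array: without it the value was 0.035 (adjusted p = 0.868). Between the concentrations 8 members differed, against 21.2% of all genes, with NFKBIE 0.79 ± 0.0806 higher at 5 uM and BCL3 0.64 ± 0.0858 higher. Of the 8, NFKBIZ (0.23) and CYLD (-0.21) were lost without replicate 2 (NFKBIZ 0.22, adjusted p = 0.0712; CYLD -0.22, adjusted p = 0.067) or replicate 3 (0.13, adjusted p = 0.291; -0.18, adjusted p = 0.0981), and the mean of its probe sets gave CYLD 0.12.

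**Figure D2:**
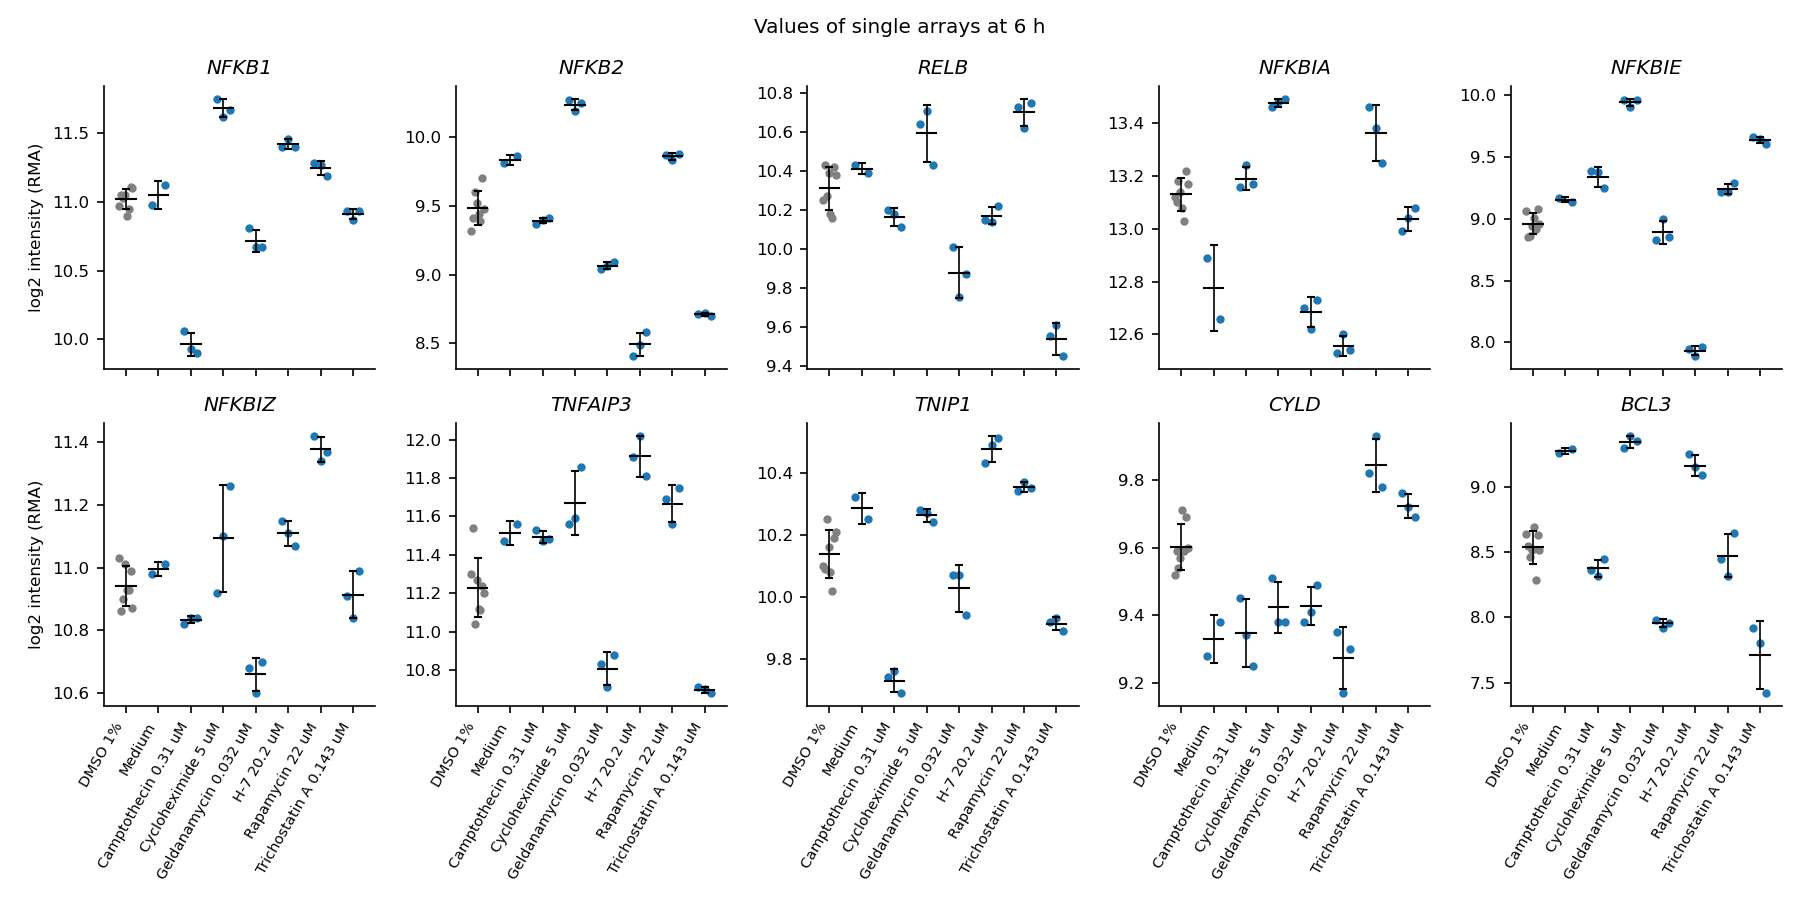
Log2 level on every array at 6 h for the 10 members in DMSO (n = 8), medium (n = 2) and 6 compound groups (n = 3 each), with bars for the mean and SD. NFKBIE under cycloheximide 5 uM (9.91 to 9.96) and H-7 20.2 uM (7.89 to 7.96) lies on opposite sides of DMSO (8.85 to 9.08).

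Rapamycin, an inhibitor of the growth-controlling kinase complex mTORC1, raised 9 of 10 members at 22 uM, where 26.6% of all genes were called (13% up, 13.6% down). NFKBIZ read 11.42, 11.34 and 11.37 against 10.86 to 11.03 (median 10.93) in DMSO, which is above every DMSO array, and rose by 0.44 ± 0.0541 (adjusted p = 1.59e-10). RELB, the subunit of the slower branch, read 10.73, 10.62 and 10.75 against 10.16 to 10.43, again above all DMSO arrays, and rose by 0.39 ± 0.0628 (adjusted p = 3.29e-07). TNFAIP3 read 11.69, 11.56 and 11.75 against 11.04 to 11.54 and rose by 0.44 ± 0.0601, with its lowest array just above the highest DMSO array. The other rises lay between 0.22 and 0.38: NFKB2 at 0.38, NFKBIE at 0.28, CYLD at 0.24, NFKB1 and NFKBIA at 0.23, and TNIP1 at 0.22. The TNIP1 call was lost without rapamycin replicate 2 (0.21, adjusted p = 0.0507). BCL3 was the exception at -0.06 ± 0.0711 (adjusted p = 0.59).

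At 13.8 uM rapamycin 8 members rose and none fell, against 17.8% of all genes. TNIP1 read 10.5, 10.63 and 10.5 against 10.02 to 10.25 in DMSO and rose by 0.41 ± 0.0573, with no overlap. NFKBIA and NFKBIE (0.12 ± 0.0668, adjusted p = 0.251) were not called at 13.8 uM. BCL3 read 8.89, 9.01 and 8.85 at 13.8 uM (difference from DMSO 0.38 ± 0.0711) but 8.45, 8.32 and 8.65 at 22 uM, where it overlapped with DMSO. NFKBIA read 13.14, 13.11 and 13.14 at 13.8 uM, within the DMSO range of 13.03 to 13.22, but 13.46, 13.38 and 13.25 at 22 uM. The test of 22 against 13.8 uM called these 2 members (2 of 10 against 6.16% of all genes), BCL3 lower by -0.44 ± 0.0858 (adjusted p = 0.000153) and NFKBIA higher by 0.23 ± 0.0583 (adjusted p = 0.0053). Both calls were lost without replicate 2 (BCL3 -0.32, adjusted p = 0.207; NFKBIA 0.22, adjusted p = 0.13), and that of NFKBIA also without replicate 1 (0.19, adjusted p = 0.116).

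H-7, an isoquinolinesulfonamide inhibitor of several protein kinases, split the members at 20.2 uM. It raised 5 and lowered 4, against a background of 50% of all genes (23% up, 27% down), so the count of 9 of 10 is read against a profile in which many genes moved. The cytoplasmic inhibitors and NFKB2 fell. NFKBIE read 7.95, 7.89 and 7.96 and fell by 1.03 ± 0.0668 (adjusted p = 1.27e-24), with all arrays below the lowest DMSO value of 8.85. NFKB2 read 8.41, 8.49 and 8.58 and fell by 0.99 ± 0.0599 (adjusted p = 1.69e-26), likewise below all DMSO arrays. NFKBIA, the first inhibitor to be resynthesised after activation, read 12.53, 12.6 and 12.54 against 13.03 to 13.22 and fell by 0.57 ± 0.0483 (adjusted p = 1.93e-18).

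The brakes TNFAIP3 and TNIP1 moved the other way under H-7. TNFAIP3 read 11.91, 12.02 and 11.81, above the DMSO maximum of 11.54, and rose by 0.69 ± 0.0601 (adjusted p = 1.31e-17). TNIP1 read 10.43, 10.49 and 10.51 against 10.02 to 10.25 and rose by 0.34 ± 0.0573 (adjusted p = 3.31e-07). BCL3 rose by 0.63 ± 0.0711, NFKB1 by 0.40 ± 0.0472 and NFKBIZ by 0.17 ± 0.0541, and RELB stood at -0.14 ± 0.0628 (adjusted p = 0.0557). CYLD was lower by -0.33 ± 0.0501 on the probe set used, with arrays at 9.35, 9.17 and 9.3, but the mean of its probe sets gave 0.48.

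At 12.4 uM H-7 7 members were called, 5 up and 2 down, against 33.5% of all genes. TNFAIP3 read 11.84, 11.87 and 11.9 and rose by 0.64 ± 0.0601, close to its value at the higher concentration. TNIP1 rose by 0.31 and BCL3 by 0.45. The falling members were far from their values at 20.2 uM: NFKBIE read 8.83, 8.76 and 8.75 (-0.18 ± 0.0668) and NFKB2 9.36, 9.32 and 9.38 (-0.13 ± 0.0599, adjusted p = 0.0914). Without H-7 replicate 1 NFKBIE was no longer called (-0.21, adjusted p = 0.0533) and NFKBIA, at -0.17, went to -0.11 (adjusted p = 0.105). The rises of NFKB1 by 0.12 and of NFKBIZ by 0.14 were also lost without single arrays (NFKB1 0.08 without replicate 3, adjusted p = 0.327; NFKBIZ 0.11 without replicate 2, adjusted p = 0.241). The test of 20.2 against 12.4 uM called 6 of 10 members, against 30.8% of all genes, with NFKB2 -0.86 ± 0.0723 and NFKBIE -0.85 ± 0.0806 lower. RELB, at -0.21, was lost without any 1 of the replicates (adjusted p = 0.13, 0.122 and 0.0556), and CYLD, at -0.38, turned to 0.19 with the mean of its probe sets. For TNFAIP3, TNIP1, BCL3 and NFKBIZ the difference between concentrations was not called.

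Geldanamycin binds the chaperone HSP90. At 0.032 uM it lowered 8 of 10 members and raised none, where 16.5% of all genes were called (6.73% up, 9.75% down). NFKBIA read 12.7, 12.62 and 12.73, all under the DMSO minimum of 13.03, and fell by 0.45 ± 0.0483 (adjusted p = 2.9e-12). BCL3 read 7.98, 7.92 and 7.96, under the DMSO minimum of 8.29, and fell by 0.58 ± 0.0711 (adjusted p = 2.3e-10). The subunit genes fell together: RELB by 0.43 ± 0.0628, NFKB2 by 0.42 ± 0.0599 and NFKB1 by 0.30 ± 0.0472. RELB read 10.01, 9.75 and 9.87, below the DMSO minimum of 10.16.

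TNFAIP3 fell by 0.42 ± 0.0601 under geldanamycin, with arrays at 10.83, 10.71 and 10.88 below the DMSO minimum of 11.04. NFKBIZ fell by 0.28 ± 0.0541, from a DMSO range of 10.86 to 11.03 to 10.68, 10.6 and 10.7. CYLD was lower by -0.17 ± 0.0501. That call was lost without geldanamycin replicate 1 (-0.15, adjusted p = 0.096) or replicate 2 (-0.17, adjusted p = 0.102), and the mean of its probe sets gave 0.02. NFKBIE at -0.07 ± 0.0668 and TNIP1 at -0.11 ± 0.0573 were not called. At 0.001 uM no member was called against DMSO (0.0822% of all genes). The higher concentration differed from the lower one in 7 of 10 members, all lower, against 9.9% of all genes, most for BCL3 (-0.59 ± 0.0858) and TNFAIP3 (-0.56 ± 0.0725). That of NFKBIZ, -0.29, was lost without replicate 2 (-0.21, adjusted p = 0.174).

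Trichostatin A inhibits histone deacetylases. At 0.143 uM it changed 8 of 10 members, 6 down and 2 up, against 44.7% of all genes (22.3% up, 22.4% down). RELB read 9.55, 9.61 and 9.45 against 10.16 to 10.43 in DMSO and fell by 0.77 ± 0.0628 (adjusted p = 2.35e-19). NFKB2 read 8.71, 8.72 and 8.7 against 9.32 to 9.7 and fell by 0.77 ± 0.0599 (adjusted p = 2.21e-20). Neither of these subunits of the slower branch overlapped with DMSO. BCL3 read 7.92, 7.8 and 7.42, all under the DMSO minimum of 8.29, and fell by 0.82 ± 0.0711 (adjusted p = 5.26e-18). TNFAIP3, at 10.71, 10.7 and 10.68, fell by 0.53 ± 0.0601 (adjusted p = 9.28e-13).

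NFKBIE rose under trichostatin A, against the direction of the other large changes. It read 9.66, 9.65 and 9.61, above the DMSO maximum of 9.08, a rise of 0.68 ± 0.0668 (adjusted p = 2.46e-15). TNIP1 fell by 0.22 ± 0.0573, and NFKBIA (-0.09 ± 0.0483) and NFKBIZ (-0.03 ± 0.0541) were not called. The fall of NFKB1 by 0.11 ± 0.0472 (adjusted p = 0.0494) and the CYLD value of 0.12 ± 0.0501 (adjusted p = 0.0387) lay near the threshold, and both calls were lost without any 1 of the 3 treated arrays (NFKB1 -0.12, -0.09 and -0.12; CYLD 0.10, 0.12 and 0.14). At 0.114 uM 7 members were called, 5 down and 2 up, against 44.3%. NFKB2 fell by 0.86, RELB by 0.82, BCL3 by 0.77, TNFAIP3 by 0.35 and TNIP1 by 0.16, while NFKBIE rose by 0.66 and NFKBIZ by 0.15. The TNIP1 call was lost without replicate 2 (-0.14, adjusted p = 0.154) or 3 (-0.12, adjusted p = 0.0736), and that of NFKBIZ without replicate 1 (0.14, adjusted p = 0.056) or 2 (0.14, adjusted p = 0.0909). No member and 0 of 18239 genes differed between the concentrations.

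Camptothecin traps topoisomerase I on DNA. At 0.31 uM it lowered 4 members and raised 2, against 46.9% of all genes (27% up, 19.9% down), a share of members close to that of the background by count. NFKB1 stood apart in size. It read 10.06, 9.93 and 9.9 against 10.9 to 11.11 in DMSO, and fell by 1.06 ± 0.0472 (adjusted p = 2.45e-35), with all treated arrays below the lowest DMSO array. TNIP1 read 9.74, 9.76 and 9.69 against 10.02 to 10.25 and fell by 0.41 ± 0.0573 (adjusted p = 1.97e-09). NFKBIE, at 9.39, 9.38 and 9.25 above all DMSO arrays, rose by 0.38 ± 0.0668 (adjusted p = 7.87e-07).

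TNFAIP3 rose by 0.27 ± 0.0601 under camptothecin, with arrays at 11.53, 11.47 and 11.48 inside the DMSO range of 11.04 to 11.54. CYLD was lower by -0.25 ± 0.0501, and the mean of its probe sets gave 0.13. RELB, at -0.15 ± 0.0628 (adjusted p = 0.047), was not called once any 1 of the treated arrays was left out (-0.16, -0.16 and -0.12), nor without DMSO replicate 2, 4, 7 or 8 (-0.13 to -0.14). At 0.01 uM no member was called, while 3.65% of all genes were. The higher concentration differed from the lower in 4 members, against 39.2% of all genes, with NFKB1 -0.95 ± 0.0569 lower and NFKBIE 0.41 ± 0.0806 higher. CYLD, at -0.27 there, turned to 0.0667 with the mean of its probe sets.

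The members were also set beside the length of the gene, which the choice of members did not use. NFKB1, the longest at 115.944 kb from start to end in RefSeq, fell the most. TNIP1 (57.743 kb) stood at -0.41, and CYLD (59.85 kb) at -0.25 on the probe set used but at 0.13 with the mean of its probe sets. RELB (36.729 kb) stood at -0.15 and NFKBIZ (33.033 kb) at -0.11. The shorter members lay on both sides of DMSO: NFKBIA (3.237 kb) at 0.06, NFKBIE (7.386 kb) at 0.38 and TNFAIP3 (16.964 kb) at 0.27, but NFKB2 (8.42 kb) at -0.09 and BCL3 (12.34 kb) at -0.16. Over all genes with a length, those of 100 kb or more had a median of -0.27, with 51.2% called lower and 5.43% called higher. Genes under 10 kb had a median of 0.13, with 34.7% called higher and 3.87% lower. Between these, the medians were 0.14 at 10 to 20 kb, 0.09 at 20 to 50 kb and -0.04 at 50 to 100 kb. NFKB1 lay below the median of its class, as did NFKB2, NFKBIA, BCL3, NFKBIZ, RELB and TNIP1. CYLD did so on the probe set used, and NFKBIE and TNFAIP3 lay above the medians of theirs. At 0.01 uM the medians at 100 kb or more and under 10 kb were -0.01 and 0.02.

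**Figure D3:**
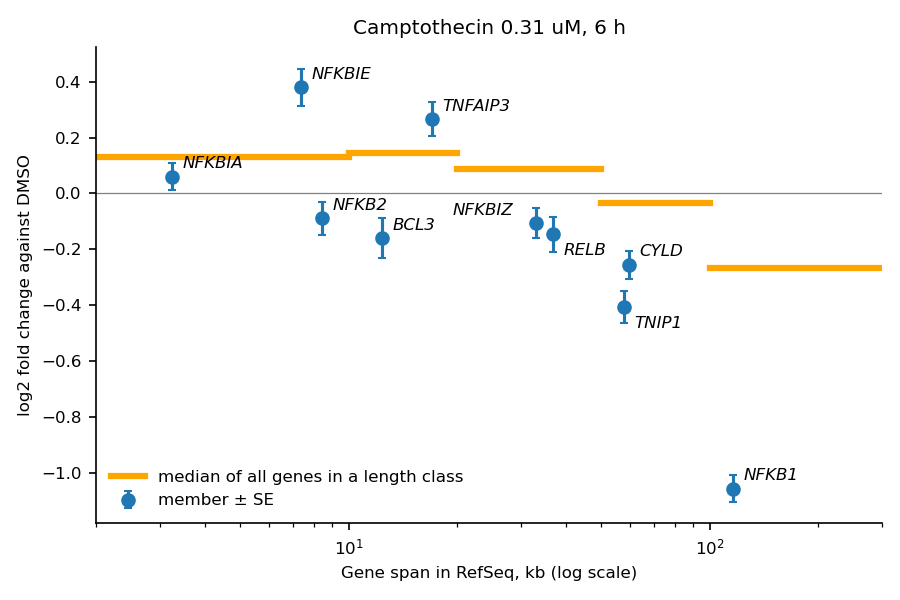
Log2 fold change ± SE under camptothecin 0.31 uM at 6 h (vertical) against the RefSeq span of the gene in kb (horizontal, log axis) for the 10 members, with medians of all genes by length class in orange. The class medians pass from 0.13 under 10 kb to -0.27 at 100 kb or more, and NFKB1 lies lowest, at -1.06.

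Medium alone differed from DMSO in some members. The part of the vehicle in this was not tested, and all compound groups were compared with DMSO. At 6 h 5 of 10 members were called, against 25.5% of all genes, with 2 medium arrays. BCL3 read 9.26 and 9.29 against 8.29 to 8.69 in DMSO, higher by 0.74 ± 0.083 (adjusted p = 6.52e-12). NFKB2 read 9.81 and 9.86, higher by 0.35, and NFKBIA 12.89 and 12.66, lower by -0.36 (adjusted p = 2.72e-07). None of these overlapped with DMSO. TNFAIP3 read 11.47 and 11.56 (0.29, overlapping), and CYLD 9.28 and 9.38 (-0.27; the mean of its probe sets gave 0.14). The CYLD call was lost without medium replicate 1 (-0.22, adjusted p = 0.0504), and that of TNFAIP3 without replicate 2 (0.24, adjusted p = 0.0898).

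Calls in the remaining groups at 6 h were few. Doxorubicin 0.101 uM lowered NFKB2 by 0.26 ± 0.0599 (adjusted p = 0.00149) and BCL3 by 0.22 ± 0.0711 (adjusted p = 0.0357), 2 of 10 against 7.14% of all genes. The NFKB2 call was lost without doxorubicin replicate 1 (-0.19, adjusted p = 0.0783) or 2 (-0.25, adjusted p = 0.0608). The BCL3 call was lost without replicate 1 (-0.18, adjusted p = 0.272) or 2 (-0.22, adjusted p = 0.222), and without DMSO replicate 1, 5 or 7 (-0.20 to -0.21). Monastrol 100 uM, an inhibitor of a mitotic kinesin, raised NFKBIA by 0.19 and lowered BCL3 by 0.27 (2 of 10 against 7.59%). NFKBIA was not called there without replicate 3 (0.18, adjusted p = 0.0547), nor BCL3 without replicate 2 (-0.25, adjusted p = 0.148). The antifolate methotrexate raised BCL3 by 0.22 (1 of 10 against 1.75%), which was lost without the arrays numbered 1 (0.22, adjusted p = 0.0904) or 3 (0.18, adjusted p = 0.25) and without DMSO replicate 6 (0.18, adjusted p = 0.089). Vincristine 0.005 uM, which blocks microtubule assembly, lowered NFKBIA by 0.21 (1 of 10 against 2.61%), and this was lost without replicate 2 (-0.12, adjusted p = 0.553) or 3 (-0.20, adjusted p = 0.0651).

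Over both concentrations of the 13 compounds, 27 of 130 pairs differed at 6 h (20.8% against 8.51% of all genes), 10 higher and 17 lower. They came from camptothecin, cycloheximide, geldanamycin, H-7 and rapamycin. For the other 8 compounds limma called none, and 8 of 80 pairs had an unadjusted p under 0.05. Etoposide is among these 8 and its pairs are part of the 130. Its concentrations were almost the same, so its comparison is close to that of repeats and cannot show an effect of concentration.

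The anthracyclines doxorubicin and aclacinomycin A share a tetracyclic core and differ in their sugars, of which aclacinomycin A carries a chain and doxorubicin a single one. Their higher concentrations, 0.101 and 0.105 uM, were not the same, so values stand side by side without a test. At 6 h NFKB2 stood at -0.26 under doxorubicin and -0.05 under aclacinomycin A, and BCL3 at -0.22 and -0.05. At 24 h without low-signal arrays CYLD stood at 0.95 and -0.01, TNIP1 at 0.62 and -0.0029, NFKBIE at 0.58 and -0.07, and TNFAIP3 at 0.56 and 0.06. No member was called under aclacinomycin A at 0.105 uM at 6 h (0.773% of all genes) or at 24 h (0%).

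The probe sets of a member did not always move together. NFKBIA (3 probe sets), TNFAIP3 (2) and TNIP1 (8) kept 1 direction in each of the 7 groups compared. CYLD did not: the set used, at 9.60 in DMSO, was lower under H-7 20.2 uM by -0.33, while the next sets, at 8.59 and 7.26, were higher by 1.06 and 0.89. Across the arrays of 6 h the set used correlated with the other CYLD sets at r between -0.16 and 0.13, as a description. The direction given for CYLD at 6 h is therefore that of 1 probe set. For BCL3 the other sets read 5.38, 4.61 and 3.90 in DMSO, below the median gene, and the first of them had the direction of the set used in 6 of 7 groups. NFKB1, NFKB2, RELB, NFKBIE and NFKBIZ had 1 probe set each.

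**Figure D4:**
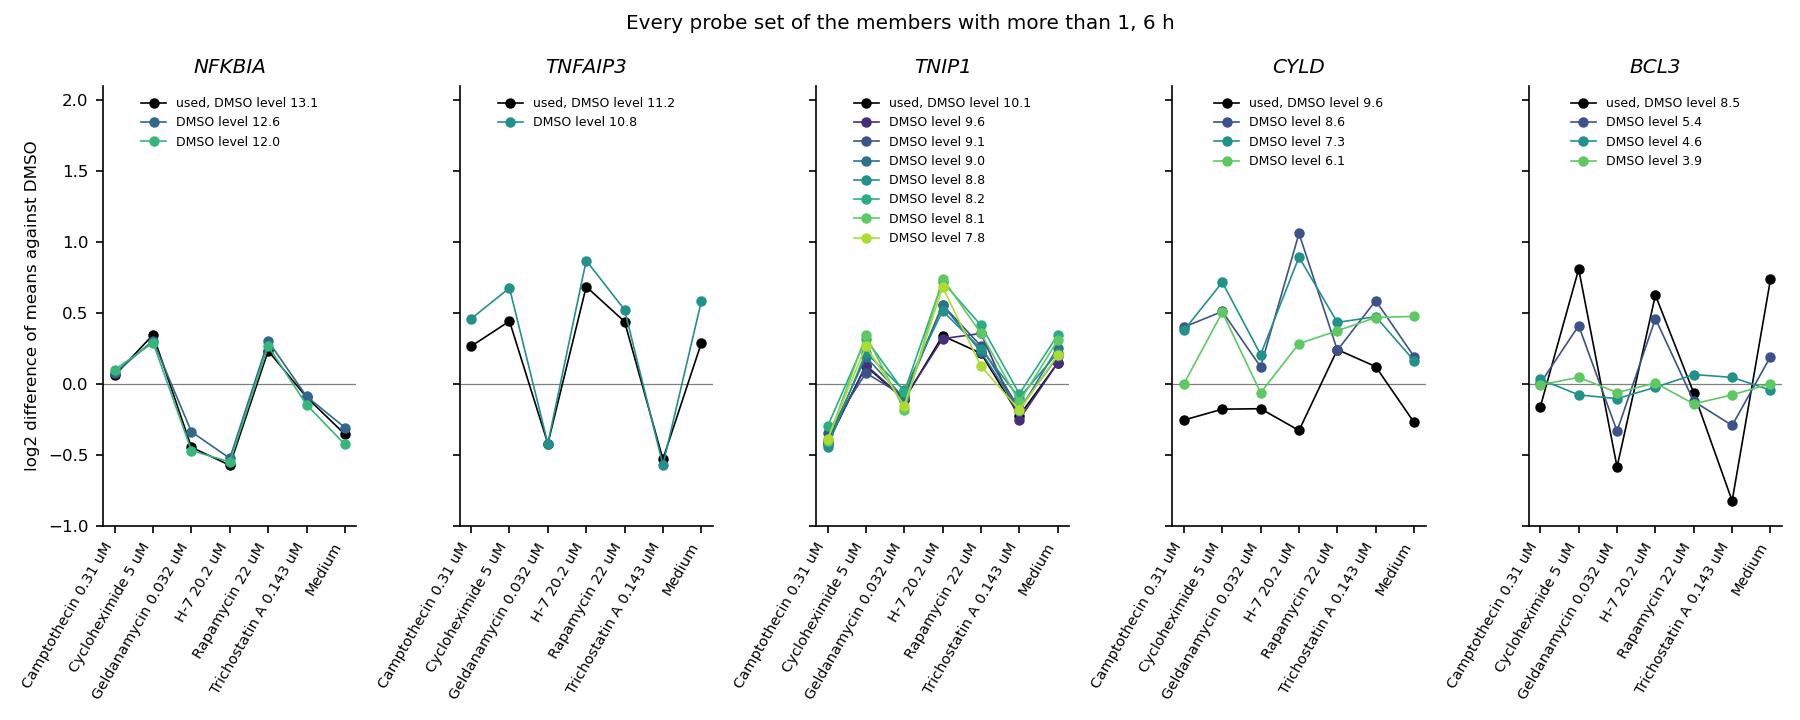
Log2 difference of means against DMSO at 6 h (vertical) for every probe set of the 5 members with more than 1, in 6 compound groups and medium (horizontal), with the set used in black and the DMSO level of each in the legend. The sets of NFKBIA, TNFAIP3 and TNIP1 run together, whereas the CYLD set used (-0.33 under H-7 20.2 uM) lies apart from the other 3 sets.

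Across the 29 group means at 6 h, which share their DMSO baseline and compounds, NFKB2 and RELB had the highest correlation between members (r = 0.84), followed by TNFAIP3 and BCL3 (0.81) and by NFKB1 and TNIP1 (0.71). The lowest were CYLD, on the probe set used, and BCL3 (-0.39) and NFKBIE and TNFAIP3 (-0.34). Among all other genes above the 40th percentile of level, those most like NFKB1 were LRCH1, DENND4A and TRIM24 (r = 0.93 each). For NFKB2 they were ZMYM6 (0.91), SMG9 (0.89) and ZC3H4 (0.88), and for RELB STAT5A (0.93), SLC37A1 (0.92) and ZC3H12C (0.92). For NFKBIA they were ZXDC (0.80), DYNC2LI1 and METTL25B (0.79 each), for NFKBIE H2AC11 (0.90), YAE1 (0.89) and ZNF252P (0.88), and for NFKBIZ PTGER4 (0.87), JMY (0.77) and FAM24B (0.74). TNFAIP3 was most like PIM3 (0.90), ACKR3 and C16orf87 (0.89 each), and TNIP1 most like BCL2 (0.84), PREX1 (0.83) and GAB2 (0.82). The CYLD probe set used, which did not follow the other CYLD sets, was most like CCPG1 (0.78), SLC41A2 and SLC38A9 (0.76 each). BCL3 was most like CD5 (0.91), CCND2 (0.89) and ACKR3 (0.88).

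Genes around the members were counted from 4 lists. Of 31 measured NF-kappaB target genes of B cells outside the member list, 16 fell and none rose under geldanamycin 0.032 uM, with a list median of -0.22 where all genes had -0.00. The chemokine gene CCL3 fell by 1.34 and the adhesion molecule gene ICAM1 by 0.97. Over all genes 6.73% rose there and 9.75% fell. Under rapamycin 16 rose and none fell at 22 uM (26.6% of all genes called) and likewise at 13.8 uM (17.8%). The chemokine genes CXCL8 and CXCL10 rose by 2.40 and 2.16 at 22 uM. Under cycloheximide 5 uM 19 rose and 3 fell (33.4% of all genes called), with a median of 0.26 against -0.03 over all genes. ICAM1 rose by 1.43 and CXCL8 by 1.25, while CCL22 fell by 0.54 and CXCR5 by 0.40.

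Elsewhere the target genes split. Under H-7 20.2 uM 16 rose and 11 fell, where 23% of all genes rose and 27% fell: the B cell survival factor gene TNFSF13B by 1.76 up and CXCL8 by 0.77 up, CCL3 by -1.04 and TNF by -0.79. Trichostatin A 0.143 uM gave 10 rises and 12 falls (44.7% of all genes called), from CXCL8 at 2.02 and SOD2 at 1.17 to FAS at -2.31 and STX11 at -1.82. Camptothecin 0.31 uM gave 13 and 9 (22 of 31 against 46.9%), from IER3 at 2.79 to CCL3 at -0.92. Medium gave 14 and 7 (21 of 31 against 25.5%), with CXCL10 at 2.97 and IL6 at 2.09, and IRF4 at -0.96.

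Of 17 measured subunits and inhibitors outside the member list, camptothecin 0.31 uM raised 8 and lowered 8 (46.9% of all genes called) and geldanamycin 0.032 uM raised 2 and lowered 7 (16.5%). H-7 20.2 uM raised 4 and lowered 7 (50%), trichostatin A 0.143 uM 2 and 9 (44.7%), and cycloheximide 5 uM 5 and 5 (33.4%). Rapamycin 22 uM raised 3 and lowered 2, 5 of 17 against 26.6%, which is near the background. REL, the subunit gene of this family that is typical of B cells, rose by 0.82 under cycloheximide and by 0.21 under rapamycin 22 uM. TRAF1, an adaptor of TNF receptors, fell by 2.63 under H-7, by 1.19 under camptothecin and by 0.85 under geldanamycin. TNIP3, a relative of TNIP1, fell by 1.08 under cycloheximide and by 1.12 under rapamycin 22 uM, against the rise of most members there. ZC3H12A, an RNase that degrades inflammatory transcripts, rose by 1.17 under trichostatin A and by 0.93 under camptothecin.

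The chain that leads to IKK had 21 measured genes. Trichostatin A 0.143 uM raised 8 and lowered 7 (44.7% of all genes called), H-7 20.2 uM 9 and 6 (50%), camptothecin 0.31 uM 7 and 8 (46.9%), and cycloheximide 5 uM 4 and 5 (33.4%). Geldanamycin 0.032 uM called 5 of 21 (16.5% of all genes), somewhat above the background, and rapamycin 22 uM 4 of 21 (26.6%), below it. MALT1, the paracaspase of the chain, fell by 1.24 under camptothecin and by 0.33 under geldanamycin. IKBKB, which encodes a catalytic subunit of IKK, fell by 0.94 under trichostatin A. Of 8 measured genes of the slower branch, 4 rose and none fell under cycloheximide 5 uM (33.4% of all genes called), among them the receptor gene CD40 (0.81) and its regulator TRAF3 (0.48). CD40 also rose by 1.08 under trichostatin A, and TNFRSF8 fell by 1.34 under H-7 20.2 uM.

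At 12 h, with all arrays, 14 of 270 pairs were called (5.19% against 2.81% of all genes), 3 rises and 11 falls. Of the falls 7 belonged to geldanamycin 0.001 uM (28% of all genes called there) and rested on replicate 2, a low-signal array with NFKB1 at 5.54 and NFKBIA at 7.23. Without it NFKB1 stood at 0.14, NFKB2 at 0.14, RELB at 0.17 and TNFAIP3 at 0.10. RELB and BCL3, called lower under trichostatin A at 6 h, fell there at 12 h as well, by 0.80 and 1.15 at 0.143 uM, 2 of 10 members against 10.5% of all genes, and by 0.98 and 1.72 at 0.114 uM, 2 of 10 against 7.8%. With the mean of its probe sets BCL3 stood at 0.0167 at 0.114 uM (adjusted p = 0.979). The rises were NFKBIE under cycloheximide 5 uM (1.10 ± 0.294, 1 of 10 against 2.93%), TNIP1 under H-7 20.2 uM (0.84 ± 0.231, 1 of 10 against 3.32%) and TNIP1 under rapamycin 22 uM (0.73 ± 0.231, 1 of 10 against 4.96%). Medium had none of 10 called by limma, nor any at an unadjusted p under 0.05, against 0.417% of all genes.

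Without low-signal arrays and against the 4 DMSO arrays left, 55 of 230 pairs in 23 groups were called at 12 h (23.9% against 8.76%), with 4 groups not covered because all of their arrays were low. Etoposide 0.812 uM and rapamycin 22 uM had 1 array left each and gave 6 of these calls; a lone array is assumed to vary like those of the other groups. Geldanamycin 0.032 uM (n = 2) lowered NFKBIA by 0.89 ± 0.0593 (adjusted p = 1.14e-17), TNFAIP3 by 0.71, NFKBIZ by 0.57 and NFKB2 by 0.50, 4 of 10 against 9.62%. NFKBIA read 12.48 on both of those arrays, against 13.22 to 13.56 in DMSO. Cycloheximide 5 uM raised NFKBIE by 0.88, BCL3 by 0.79 and NFKB1 by 0.76 (7 of 10 members called, against 24.3%). H-7 20.2 uM raised TNFAIP3 by 0.90 ± 0.0801 and TNIP1 by 0.86 ± 0.0972 (6 of 10 against 25.9%). TNFAIP3 read 12.27, 12.39 and 12.34 there, above the DMSO maximum of 11.86. Camptothecin 0.31 uM (n = 2) lowered NFKB1 by 0.93 ± 0.0755 (3 of 10 called, against 27.8%), and TNIP1 and CYLD were not called.

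At 24 h, with all arrays, 23 of 270 pairs were called (8.52% against 5.79%), 8 rises and 15 falls. TNFAIP3 supplied 6 of the rises. On the 6 methotrexate arrays it read 12.09 to 12.19 (median 12.13) against 11.34 to 11.63 in DMSO, a rise of 0.66 ± 0.11 (adjusted p = 8.87e-06). Under doxorubicin 0.101 uM it read 12.06, 12.04 and 12.02 and rose by 0.57 ± 0.138 (adjusted p = 0.00321). The others were H-7 20.2 uM (0.59), trichostatin A 0.143 uM (0.54, 1 of 10 members against 5%), rapamycin 22 uM (0.47, 1 of 10 against 2.49%) and cycloheximide 5 uM (0.42, 1 of 10 against 13.5%). With the mean of its probe sets TNFAIP3 stood at -0.26 under H-7 and -0.0031 under cycloheximide. CYLD was the other riser. It read 10.49, 10.5 and 10.54 under doxorubicin 0.101 uM and 10.21 to 10.35 under methotrexate, against 9.22 to 9.6 in DMSO, so neither overlapped. The differences were 0.99 (adjusted p = 0.0249) and 0.76 (adjusted p = 0.0408), and these compounds had 2 of 10 members called each, against 6.07% and 4.74% of all genes.

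All 15 falls at 24 h came from groups that held low-signal arrays. So did the TNFAIP3 rises under H-7 20.2 uM, trichostatin A 0.143 uM, rapamycin 22 uM and cycloheximide 5 uM. Under cycloheximide 2 of 3 arrays were low, while the doxorubicin and methotrexate groups held no such array. Under H-7 12.4 uM 6 members fell (59.1% of all genes called), and all 3 arrays were low. Under H-7 20.2 uM 6 members fell (20.7% of all genes called); without replicate 3, the low array, BCL3 stood at 0.10, NFKB2 at 0.01 and RELB at 0.03. Under mitomycin C 2.56 uM RELB, NFKBIA and NFKBIZ fell (25.8% of all genes called) with replicate 2 as the low array, on which NFKB1 read 8.11 and CYLD 7.01. Without it RELB stood at 0.16. The part of signal quality in these falls was not tested beyond leaving the arrays out.

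Without low-signal arrays and against 7 DMSO arrays, 98 of 260 pairs in 26 groups were called at 24 h (37.7% against 18.2%), 73 rises (28.1% against 8.77%) and 25 falls (9.62% against 9.45%, about the background). Cycloheximide 5 uM had 1 array left and gave 5 of these calls, for which the array is assumed to vary like those of the other groups. TNIP1 was called in 17 groups, 16 of them rises, and TNFAIP3 in 16, of which 15 were rises. CYLD rose in 11 groups and fell in 3, and NFKB1 rose in 10 and fell in 4. RELB was called in 3.

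CYLD, TNIP1, NFKBIE, TNFAIP3 and NFKB1 were each called higher at 24 h under doxorubicin, methotrexate, mitomycin C and etoposide, which damage DNA or block its synthesis. Genes and compounds were named together after their values were seen. Camptothecin 0.31 uM, which also damages DNA, had TNFAIP3 at 0.0207 (adjusted p = 0.892) and NFKB1 lower. The other TNFAIP3 probe set stood at 0.275 under camptothecin, as a difference of means. Doxorubicin 0.101 uM, which poisons topoisomerase II, raised CYLD by 0.95 ± 0.0604 (adjusted p = 3.96e-22), TNIP1 by 0.62 ± 0.0523, NFKBIE by 0.58 ± 0.0653, TNFAIP3 by 0.56 ± 0.0677 and NFKB1 by 0.37 ± 0.0476; 8 of 10 members were called, against 35.7% of all genes. TNIP1 read 10.73, 10.59 and 10.65 against 9.94 to 10.12 in DMSO, and NFKBIE 9.74, 9.75 and 9.77 against 9.09 to 9.36, with no overlap. Methotrexate raised CYLD by 0.72 ± 0.0487, NFKBIE by 0.70 ± 0.0527, TNFAIP3 by 0.65 ± 0.0545, TNIP1 by 0.52 ± 0.0422 and NFKB1 by 0.50 ± 0.0384 (7 of 10 called, against 35.6%).

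Mitomycin C 2.56 uM, a DNA crosslinker with 2 arrays left, raised TNIP1 by 0.70, TNFAIP3 by 0.68, CYLD by 0.66, NFKB1 by 0.54 and NFKBIE by 0.50 (6 of 10 called, against 29.8%). Etoposide 0.812 uM, another topoisomerase II poison, raised TNIP1 by 0.48, CYLD by 0.46, TNFAIP3 by 0.38, NFKBIE by 0.29 and NFKB1 by 0.16 (5 of 10, against 25%). These comparisons share their DMSO arrays. For CYLD all 4 probe sets were higher at 24 h under doxorubicin (0.93 to 1.03), mitomycin C (0.62 to 0.79) and methotrexate (0.15 to 0.72).

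Camptothecin 0.31 uM (n = 2) kept NFKB1 low at 24 h, at -0.59 ± 0.0553 (6 of 10 called, against 34%), and TNIP1, lower at 6 h, was higher by 0.50 ± 0.0608. Trichostatin A 0.143 uM (n = 2) raised TNIP1 by 1.05 ± 0.0608 (adjusted p = 3.23e-23), the largest rise among the groups named for 24 h, and TNFAIP3 by 0.56 ± 0.0786, where both had fallen at 6 h (3 of 10 called, against 31.2%). The remaining arrays read 11.17 and 10.99 for TNIP1, above the DMSO maximum of 10.12. Rapamycin 22 uM (n = 2) raised TNIP1 by 0.79, RELB and TNFAIP3 by 0.46 each and NFKBIZ by 0.34 (7 of 10 called, against 27.7%). Medium differed from DMSO in 5 of 10 members (20.2% of all genes), all lower: CYLD by -0.85, NFKB2 by -0.58, NFKBIA by -0.51, RELB by -0.42 and NFKB1 by -0.33. With all arrays medium had none of 10 called at 24 h, with 1 at an unadjusted p under 0.05, against 0.713% of all genes.

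**Figure D5:**
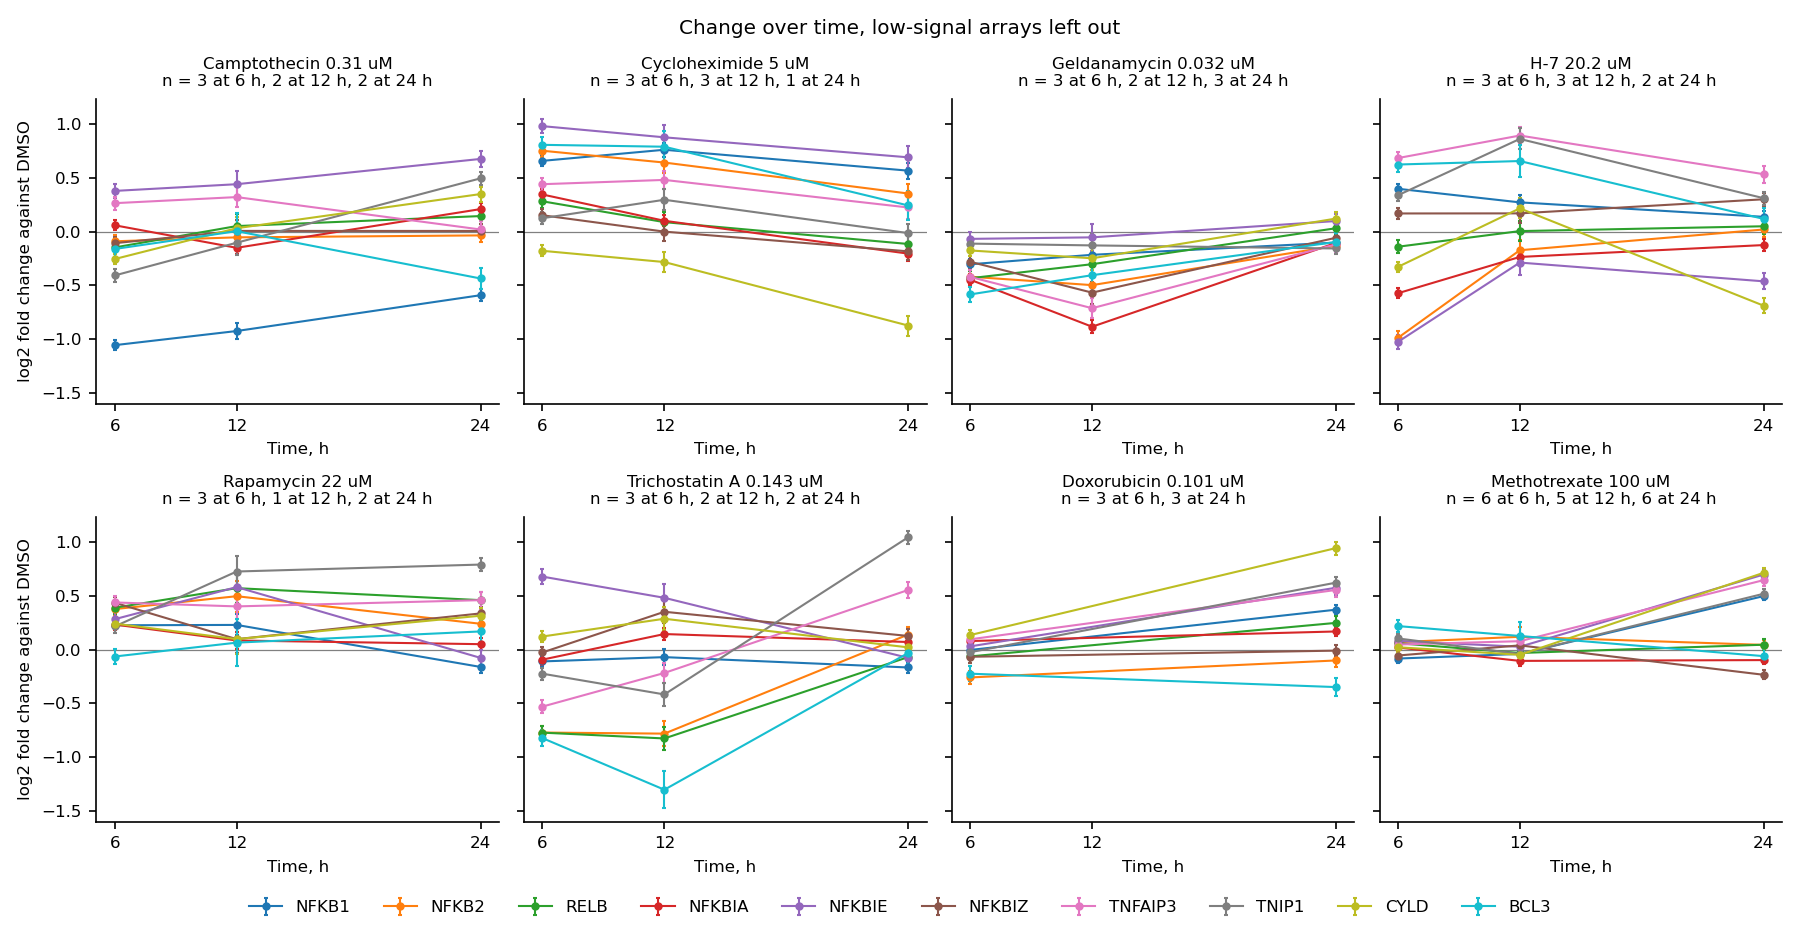
Log2 fold change ± SE against DMSO at 6, 12 and 24 h for the 10 members under 8 compounds, with low-signal arrays left out and the number of treated arrays above each panel. TNFAIP3 and TNIP1 cross from below to above DMSO under trichostatin A (TNIP1 from -0.22 to 1.05). On the probe sets used, CYLD is highest at 24 h under doxorubicin (0.95) and methotrexate (0.72, beside 0.70 for NFKBIE).

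The change of the effect from 6 to 24 h was tested as a contrast of differences for the highest concentration of each compound. With all arrays 6 of 140 pairs were called (4.29% against 3.2%), and 11 compounds had none, with 9 of their 110 pairs at an unadjusted p under 0.05. Without low-signal arrays 54 pairs were called (38.6% against 16.3%), 40 upward and 14 downward, of which 6 of the downward ones came from the 1 array left for cycloheximide 5 uM at 24 h. Under trichostatin A TNFAIP3 shifted by 1.07 with all arrays (adjusted p = 0.0279) and by 1.09 ± 0.104 without the low ones, and TNIP1 by 1.27 ± 0.0987. NFKB2 shifted by 0.91, BCL3 by 0.79 and RELB by 0.70, and NFKBIE by -0.76. Under doxorubicin CYLD shifted by 0.81 ± 0.0858, TNIP1 by 0.65 ± 0.0909, NFKBIE by 0.55 ± 0.105, TNFAIP3 by 0.46 ± 0.0957 and NFKB1 by 0.38 ± 0.0696. Under methotrexate CYLD shifted by 0.69 ± 0.0688, NFKBIE by 0.62 ± 0.084, TNFAIP3 by 0.60 ± 0.0767, NFKB1 by 0.58 ± 0.0558 and TNIP1 by 0.42 ± 0.0729.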

How the data were processed

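RNA of OCI-Ly3 cells was hybridised to HT HG-U219 arrays, and the authors deposited log2 intensities summarised with RMA (version not stated in the sources used here), per the submitters' processing notes; values have 2 decimals. Of 49386 probe sets the platform annotation lists 46586, of which 45259 carry 1 symbol and 1327 several or none. Symbols were checked through gene identifiers, with 45178 matched. The probe set with the highest mean stood for each of 18239 genes. The 94 arrays of a time entered 1 model in limma 3.58.1 (R 4.3.3) (1 mean per group, eBayes with a trend), with Benjamini-Hochberg adjustment over all genes of a comparison. Fits were checked on simulated data. Arrays give no read depth; their number limits the precision.

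The members, lists and limits for low-signal arrays were chosen with earlier results of these data known. All 10 members are named, 6 h comparisons with at least 3 members called are given in full, and of each list up to the 2 largest called rises and falls. Alternatives were quantile normalization again, no trend, a filter on the lowest 40% of genes, the mean of all probe sets, only the groups compared, the upper quartile as a covariate, the replicate number as a block, leaving out low-signal arrays and leaving out single replicates. Promoters and gene spans come from RefSeq tables (GRCh38.p14). Tables and figures were made in Python 3.11.15 (pandas 2.3.3, numpy 2.4.6, matplotlib 3.10.9).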

Additional observations from a re-analysis of the deposited data

Results flagged for a closer look

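In groups of 4 to 10 arrays, the gap of the highest or lowest array to its nearest neighbour was set against the range of the group; chance sets an array apart in about 1 in 20 groups, and here it happened in 7 of 60. In methotrexate at 6 h, NFKB2 read 9.8 on an array numbered 1 (nearest 9.57), TNFAIP3 11.41 on an array numbered 1 (nearest 11.26) and NFKBIE 9.39 on an array numbered 3 (nearest 9.02). In methotrexate at 12 h NFKBIE read 7.61 (nearest 8.93) on a low-signal array. In DMSO NFKBIE read 9.36 at 24 h (nearest 9.21). CYLD read 8.94 in DMSO at 12 h (nearest 9.45) and 9.22 in DMSO at 24 h (nearest 9.51), both on low-signal arrays.

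The effect at 24 h differed from that at 6 h, by the test of the difference with all arrays, in 6 pairs. Under H-7 20.2 uM it was -1.33 for BCL3 and -0.89 for CYLD, and under mitomycin C 2.56 uM -1.38 for NFKBIZ and -1.38 for RELB. Under trichostatin A 0.143 uM it was -1.07 for NFKBIE and 1.07 for TNFAIP3. Without low-signal arrays these became -0.51, -0.36, -0.19, 0.29, -0.76 and 1.09 in the same order.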

How the results depend on the processing

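At 6 h the count of 80 calls stayed within 1.5 times under each of the alternatives run, and ranged from 63 to 81 without single replicates. Of the 80, 23 were lost under some alternative, most often NFKBIE under cycloheximide 0.264 uM (12), NFKB1 under trichostatin A 0.143 uM (11) and RELB under camptothecin (10). Without single replicates, differences between concentrations at 6 h numbered 21 to 28 (27), medium calls 4 to 7 (5) and list calls 403 to 476 (475). The later times depended on the arrays used; the cause was not tested.

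At 12 h the count of 14 was 30 with only the groups compared, 55 without low-signal arrays and 11 to 39 without single replicates. At 24 h the count of 23 was 37 with quantile normalization, 63 with only the groups compared, 98 without low-signal arrays and 18 to 21 without single replicates. For concentrations the count of 2 at 12 h became 5 (quantile normalization), 1 (mean of probe sets), 8 (only the groups compared), 20 (without low-signal arrays), 1 (covariate) and 2 to 13 (single replicates). At 24 h 5 became 15 (only the groups compared), 29 (without low-signal arrays), 10 (covariate) and 4 to 9 (single replicates). For medium 0 at 12 h became 1 (quantile normalization), 1 (only the groups compared), 4 (without low-signal arrays) and 0 to 1 (single replicates), and 0 at 24 h became 1 (quantile normalization), 5 (only the groups compared), 5 (without low-signal arrays), 1 (covariate) and 0 to 0 (single replicates). The 6 changes of effect became 12 (quantile normalization), 54 (without low-signal arrays), 11 (covariate) and 5 to 15 (single replicates).

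Replicate numbers did not pair the arrays on average: same-numbered arrays of different groups correlated in their deviations at a mean r of 0.0004, 0.0004 and 0.0145 at 6, 12 and 24 h. Single pairs ran from -0.42 to 0.51 at 6 h and from -0.41 to 0.79 at 24 h, and a mean cannot show whether some groups were paired. With the replicate number as a block, limma called 70 pairs at 6 h, 9 at 12 h, 8 at 24 h and 0 changes of effect (11 of 140 at an unadjusted p under 0.05). Most DMSO replicate numbers occur in no other group, so in this setting those DMSO arrays did not enter the comparison. The lower counts can therefore not be read as an effect of pairing.

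Directions turned as follows. Quantile normalization gave RELB 0.25 (geldanamycin 0.001 uM, 12 h) and CYLD 0.0172 (H-7 12.4 uM, 24 h). The mean of probe sets gave CYLD at 6 h 0.13 (camptothecin), 0.39 (cycloheximide 5 uM), 0.0228 (geldanamycin 0.032 uM), 0.48 (H-7 20.2 uM) and 0.14 (medium), and 0.0667, 0.12 and 0.19 between concentrations of camptothecin, cycloheximide and H-7. It gave BCL3 0.0167 (trichostatin A 0.114 uM, 12 h), and TNFAIP3 at 24 h -0.0031 (cycloheximide 5 uM) and -0.26 (H-7 20.2 uM). The covariate gave CYLD 0.25 and NFKBIA 0.0278 (H-7 12.4 uM, 24 h). Without low-signal arrays geldanamycin 0.001 uM at 12 h gave NFKB1 0.12, NFKB2 0.11, RELB 0.23, TNFAIP3 0.17 and TNIP1 0.0875, and its concentrations differed by -0.34 (NFKB1) and -0.21 (TNIP1). At 24 h H-7 20.2 uM gave BCL3 0.12, NFKB2 0.0207 and RELB 0.0507, and mitomycin C gave RELB 0.18, its change of effect 0.29 and NFKBIZ between concentrations 0.0167. Without single replicates the values under geldanamycin 0.001 uM at 12 h ran from -2.73 to 0.14 (NFKB1), -2.33 to 0.14 (NFKB2), -2.60 to 0.0187 (NFKBIZ), -1.06 to 0.17 (RELB), -2.78 to 0.10 (TNFAIP3) and -1.28 to 0.0612 (TNIP1), the highest each without drug replicate 2, and from -0.23 to 2.52 (NFKB1) between its concentrations. At 24 h H-7 20.2 uM ran from -1.17 to 0.10 (BCL3), -1.11 to 0.0112 (NFKB2) and -1.81 to 0.0325 (RELB), the highest without drug replicate 3, and RELB under mitomycin C from -2.35 to 0.16 and its change of effect from -2.22 to 0.28, the highest without drug replicate 2.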
